A study of Macaca fascicularis with 15 samples.

Results

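Central retina of the cynomolgus monkey (Macaca fascicularis) was compared with whole retina by RNA sequencing, over every gene tested. The libraries were chosen by the tissue in their labels and the headers of their tables: 4 of central retina and 2 of whole retina, which is 6 of the 11 libraries with a table among the 15 samples of the series. The remaining 5 tables hold 3 libraries of peripheral retina and 2 of whole eye, and 4 further records, which repeat the replicate names of whole eye (2) and whole retina (2), were not analysed here. All groups are wild-type animals, each sample came from a single eye, and the tissue had been kept in RNALater, a solution that protects RNA. The labels name no treatment, age, sex, animal or date. Biological replicates are stated for eye and retina only; the central libraries may or may not be from different animals. The p-values therefore cover the variation among these libraries, part of which may be technical.

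The central retina of a primate holds the macula, named in the headers of the central tables, with the fovea at its centre. Cones are packed most densely there, and ganglion cells, whose axons form the optic nerve, lie in several layers around the fovea. A whole retina adds the rod-rich periphery, with Müller glia and blood vessels throughout. The pigment epithelium, choroid, ciliary body, iris and lens border on the retina without being part of the neural retina, and they can come away with it at dissection.

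Values are the authors' normalized signal, 1 per gene and library, in a unit that no source used here gives. Levels are compared between libraries for the same gene, not between genes. Absolute depth is unknown, and relative depth could be recovered only up to a small whole factor, between 58.1% and 100% of the deepest library. Of 12995 entries, 371 to 501 were listed at 0 in a central library and 196 and 226 in the whole retina libraries. Log2 values of the 11933 tested genes (genes do not count as independent replicates) correlated at 0.968 to 0.986 between central libraries and at 0.953 between the 2 whole retina libraries. Whole retina with central libraries gave 0.803 to 0.834, while whole retina with whole eye gave 0.914 to 0.955.

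The 2 libraries labelled whole retina held RNA of tissues outside the neural retina at levels close to those of the whole eye. Summed over 10 pigment epithelium genes, values were 2083.5 to 2268.0 in whole retina, 2160.5 to 2368.4 in whole eye and 81.3 to 181.0 in central retina. The 6 smooth muscle genes summed to 1420.7 to 1712.2, 736.8 to 1425.4 and 37.1 to 52.5 in the same order, and the 7 genes of ciliary body and iris to 767.6 to 778.8, 658.6 to 659.0 and 13.3 to 18.6. Lens genes (16 summed) lay between, at 1018.3 to 1160.0 in whole retina, 4536.7 to 5015.9 in whole eye and 39.8 to 60.6 in central retina. Markers of the corneal surface were low in whole retina by comparison, with a sum over 5 genes of 14.1 to 63.0 against 1158.9 to 1457.4 in whole eye. The rod list, by contrast, summed to 17147.5 to 17961.0 in whole retina and 13113.0 to 22161.7 in central retina. Between whole retina and whole eye, limma called 20 genes higher in whole retina (0.168%) and 251 lower (2.1%). These libraries are called whole retina below as labelled. The part of the added tissues in the differences was not tested, and leaving out both whole retina libraries would leave no comparison, so calls are given with each of the 6 libraries left out in turn.

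**Figure D1:**
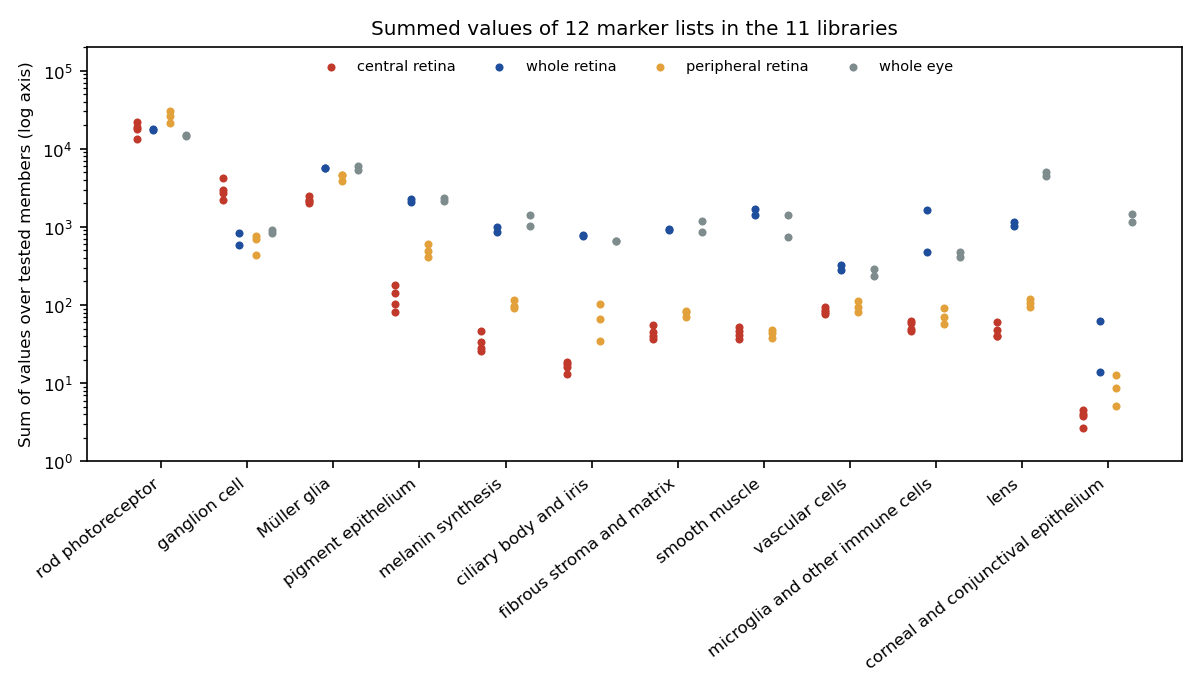
Summed values of 12 marker lists in the 11 libraries, on a log axis, with 1 point per library coloured by group. For pigment epithelium, ciliary body and iris, stroma and smooth muscle genes the whole retina points sit near the whole eye points, and the central and peripheral points lie below them. Immune gene sums are 1623.3 and 481.0 in whole retina replicates 1 and 2 and 481.5 and 405.8 in whole eye, with central and peripheral points below. Ganglion cell sums are highest in the 4 central libraries.

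Of the 11933 genes tested, 2257 (18.9%) were higher and 3549 (29.7%) lower in central than in whole retina, together 48.7%, by limma at an adjusted p under 0.05. The median log2 difference over all tested genes was −0.10, with quartiles at −0.57 and 0.31. Large differences lay mostly on the lower side: 1746 called genes were over 2-fold lower and 671 over 2-fold higher, and 216 were over 10-fold lower against 1 higher, all on the log2(value + 1) scale. Libraries of the groups did not overlap for 2879 genes with central higher (24.1%) and 4140 with central lower (34.7%). The balance of directions depends on the scaling. As deposited, 61.1% of calls were lower, against 51% with TMM scaling (2878 higher, 2998 lower), 45.7% with each library centred on its median (3243 and 2727) and 40.5% with quantile normalization (3681 and 2502). The median difference of all genes was then 0.02, 0.08 and 0.12. A gene or list median near 0 is therefore read against the median of all genes.

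**Figure D2:**
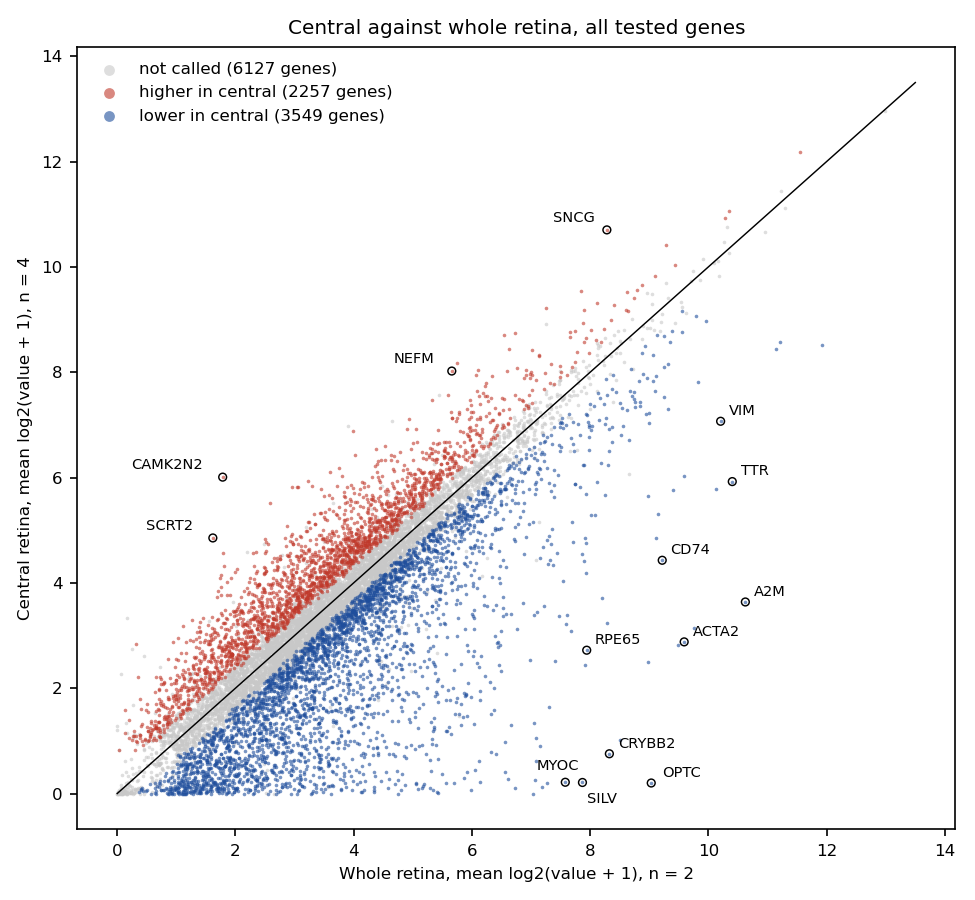
Each of the 11933 tested genes by its mean log2(value + 1) in the 2 whole retina libraries (x axis) and the 4 central libraries (y axis), with the line of equal values. Red points are the 2257 genes called higher in central retina and blue points the 3549 called lower; the blue points reach far below the line, down to OPTC, SILV and MYOC near 0 in central retina.

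For the genes described next, values are given in the order of central replicates 1 to 4 and of whole retina replicates 1 and 2. Differences are fitted log2 differences, central minus whole retina, with their standard error, and a gene is called where limma's p, adjusted over all tested genes, was under 0.05. A name that begins with another gene's whole name, or the reverse, is called a shared name start. Such genes are pointed out where named; whether their values were divided between the names was not tested. In bulk tissue, fewer cells of a type and less RNA per cell cannot be told apart.

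Ganglion cell genes were higher in central retina. Of the 17 genes listed, 12 were tested and 12 were higher, against 18.9% of all genes (adjusted p under 0.05), and the median difference was 1.63. SNCG, gamma-synuclein, an abundant protein of ganglion cell axons, stood at 1217, 1396, 1802 and 2509.8 in the central libraries and at 376 and 256 in whole retina, a difference of 2.42 ± 0.34 (limma adjusted p = 0.000132). The neurofilament genes NEFL and NEFM encode the light and medium chains of the filaments that fill axons. NEFM was 219, 237, 222 and 391 in central against 55.6 and 44.2 in whole retina (2.36 ± 0.28, adjusted p = 3.58e-05), and NEFL was 257, 375, 328 and 451 against 118 and 80.2 (1.82 ± 0.28, adjusted p = 0.000251). Central replicate 4 was the highest for all 3 genes, and the lowest central library still lay above both whole retina libraries.

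The transcription factor genes that specify ganglion cells were also higher in central retina. POU4F2 was 13.02, 18.7, 14.98 and 17.9 in central and 4.19 and 3.31 in whole retina (1.85 ± 0.20, adjusted p = 2.47e-05). Its relative POU4F3 was 3.37, 3.55, 3.49 and 4.18 against 0.86 and 0.48 (1.48 ± 0.14, adjusted p = 7.47e-06). SLC17A6, the vesicular glutamate transporter that loads the transmitter of these cells, was 36.7, 59.5, 47.9 and 52.3 against 13.7 and 13.1 (1.78 ± 0.20, adjusted p = 2.8e-05). The groups did not overlap for 12 of the 12 genes, against 24.1% of all genes with central retina higher. Of the 12 calls, 10 remained in every fit with 1 library left out. Peripheral retina stood close to whole retina in this list: the median of peripheral minus whole retina was −0.12, and that of central minus peripheral was 1.87, with 11 of 12 higher (background 12.5%). POU4F1, RBPMS, NEFH, ATOH7 and TUBB3 were not analysed here.

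Genes of synaptic vesicles and of neurons in general were higher as well, at 9 of 11 tested members of 17 listed, against 18.9% of all genes, and a median of 1.09. KIF5A, a motor that carries cargo along axons, was 129.8, 125, 122 and 178 in central and 40.1 and 21.8 in whole retina (2.17 ± 0.25, adjusted p = 3.72e-05). ELAVL4, a neuronal RNA-binding protein, was 12.6, 15.5, 14.2 and 16.1 against 4.12 and 4.21 (1.59 ± 0.13, adjusted p = 3.05e-06). MAPT, the axonal microtubule protein tau, was 20.1, 23.97, 23.6 and 28.1 against 7.96 and 7.33 (1.52 ± 0.16, adjusted p = 1.43e-05). In all 3 the whole retina pair was well below the central range, and for KIF5A whole retina replicate 2 was the lower of the pair. The vesicle motor KIF1A was 97.5, 71.7, 84.96 and 88.4 against 44.3 and 31.97 (1.16 ± 0.15, adjusted p = 9.1e-05). The central minus peripheral median of this list was 0.60, with 6 of 11 higher (background 12.5%). SYN1, SYN2, SV2A, NSF, CAMK2B and UCHL1 were not analysed here.

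The photoreceptor ribbon synapse, the release site that keeps transmitter flowing in the dark, was represented by 13 tested genes of 17 listed, and 7 were higher in central retina, against 18.9% of all genes, at a median of 0.76. BSN, the scaffold protein bassoon, was 9.42, 6.11, 8.75 and 6.64 in central and 3.11 and 2.37 in whole retina (1.21 ± 0.19, adjusted p = 0.000277). CACNA1F, the calcium channel subunit of photoreceptor terminals, was 94.03, 80.1, 78.5 and 77.6 against 39.3 and 36.2 (1.11 ± 0.17, adjusted p = 0.000307). CABP4, which tunes that channel, was 207, 150.2, 189.8 and 157 against 87.5 and 66.7 (1.18 ± 0.16, adjusted p = 0.000115). No central library of these genes came near the whole retina pair, and the 7 calls remained whichever library was left out. CPLX3, a complexin of ribbon synapses with a name that shares its start with CP, was 265, 216, 214 and 256 against 131 and 119 (0.92 ± 0.13, adjusted p = 0.000131); summed with CP it was 272, 228, 219.9 and 263 against 257 and 209.9, and the groups then overlapped. Unlike the ganglion cell list, this list had a central minus peripheral median near 0, at −0.18, and a peripheral minus whole retina median of 0.52. RIMS1, RIMS2, SLC17A7 and STX3 were not analysed here.

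**Figure D3:**
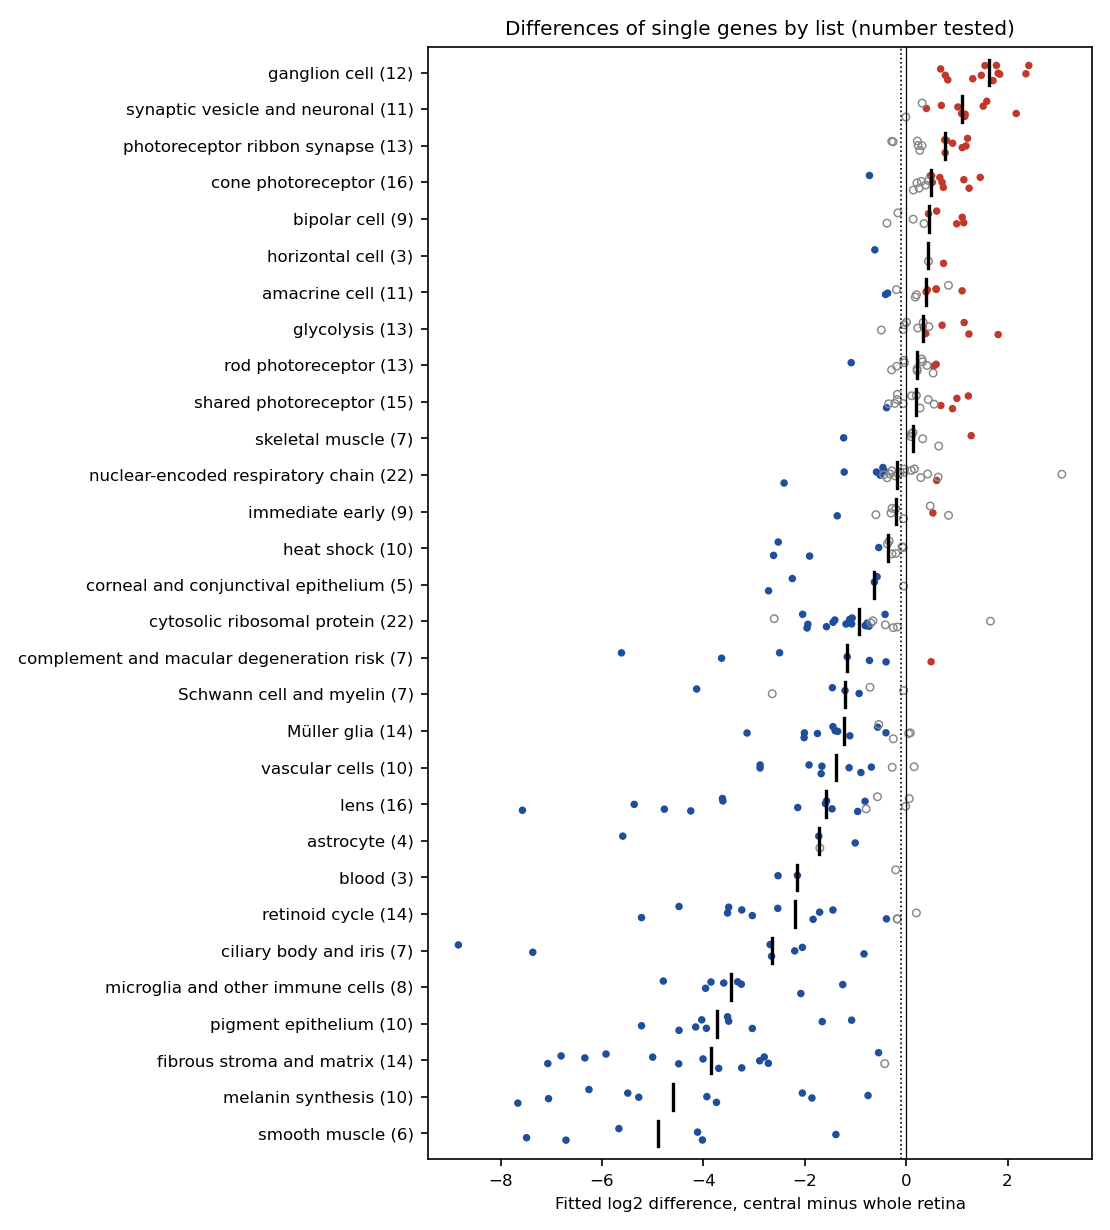
Fitted log2 differences, central minus whole retina, of the tested members of 30 gene lists (number tested in brackets), with filled points for called genes, open points for the others and a black bar at each list's median; the dotted line is the median of all genes, −0.10. Lists run from smooth muscle (median −4.89) at the bottom to ganglion cell (1.63) at the top.

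Cone genes were in part higher in central retina. Of 17 listed, 16 were tested, 9 were higher and 1 lower (29.7% of all genes were lower), with a median of 0.49. Peripheral retina shared part of this, with a peripheral minus whole retina median of 0.39 and 2 genes higher (background 9.83%). The central minus peripheral median was 0.22, with 4 of 16 higher and 1 lower (background 12.5% and 8.76%). Those 4 were OPN1SW, SLC24A2, RXRG and OPN1LW. OPN1SW, the opsin of short-wavelength cones, was 180.1, 123, 138 and 164 in central and 47.8 and 60.3 in whole retina (1.46 ± 0.18, adjusted p = 5.14e-05). SLC24A2, the cone exchanger that pumps calcium out in return for sodium, was 27.3, 25.4, 29.99 and 25.7 against 11.2 and 10.5 (1.24 ± 0.17, adjusted p = 0.000105). The nuclear receptor gene RXRG, expressed in cones, was 55.3, 66.99, 62.05 and 87.7 against 31.99 and 27.9 (1.14 ± 0.19, adjusted p = 0.000564). For these 3 genes the groups were well apart and the calls remained with each library left out.

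Other cone genes differed less. OPN1LW, the long-wavelength opsin, was 371, 408, 306 and 425 in central and 309 and 338 in whole retina, with overlapping groups (0.21 ± 0.16, adjusted p = 0.284); it passed only under quantile normalization, at 0.0109. Its near-identical neighbour OPN1MW was not analysed here, and reads of the 2 may have been split or shared in counting. CNGA3, a subunit of the cone cyclic GMP-gated channel, was 10.3, 13.3, 11.2 and 9.24 against 7.25 and 5.42 (0.71 ± 0.17, adjusted p = 0.00508). Its partner subunit CNGB3 was the lower member, at 4.71, 6.72, 3.74 and 4.53 against 7.73 and 9.62 (−0.72 ± 0.20, adjusted p = 0.0115). The channel calls were lost without whole retina replicate 2, at adjusted p = 0.0724 for CNGA3 and 0.11 for CNGB3. Cone arrestin, ARR3 (shared name start), was 688, 787, 598 and 651 against 365 and 499 (0.66 ± 0.17, adjusted p = 0.0079); its call was lost without whole retina replicate 1, at 0.112. The count of higher cone genes was 5 without whole retina replicate 1, whole retina replicate 2 or central replicate 2.

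Of 15 rod genes listed, 13 were tested, 2 were higher and 1 lower, against 18.9% and 29.7% of all genes, with a median of 0.22. The count of higher genes is near that background, and 10 genes did not pass. NRL, the transcription factor that directs the rod fate, was 1279, 843, 1091 and 1013 in central and 776 and 619 in whole retina (0.59 ± 0.19, adjusted p = 0.0239). CNGB1, a subunit of the rod channel, was 146, 93.4, 148 and 114 against 89.7 and 79.1 (0.54 ± 0.19, adjusted p = 0.0382). The lower member, GNGT1, the gamma subunit of rod transducin, was 94.5, 98.8, 106 and 94.05 against 156 and 282 (−1.08 ± 0.29, adjusted p = 0.0103).

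These rod calls each depended on a library. Without whole retina replicate 2, central replicate 1 or central replicate 3 neither NRL nor CNGB1 passed, without central replicate 2 the count of higher genes was 4, and without whole retina replicate 1 it was 1. Under quantile normalization 5 rod genes were higher, and with each library centred on its median 4. GNGT1 lost its call without whole retina replicate 2, at adjusted p = 0.157. PDE6B, the beta subunit of the rod phosphodiesterase, at 277, 178, 319.9 and 283 against 209 and 153, did not pass (adjusted p = 0.116) but passed without central replicate 2, at 0.0255. Central replicate 2 had the lowest rod sum of the 4 central libraries, 13113.0. Central minus peripheral, the rod median was −0.49 with 7 lower (background 8.76%), and peripheral minus whole retina it was 0.79 with 8 higher (background 9.83%). PDE6G and ROM1 were not analysed here.

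Among genes used by rods and cones alike, 15 of 20 were tested, 4 were higher and 1 lower, at a median of 0.20. The higher count is close to the background of 18.9%, and that of lower genes in all was 29.7%. Peripheral minus whole retina, the median was 0.71 with 9 of 15 higher (background 9.83%). Central minus peripheral, it was −0.39 with 0 higher and 6 lower (background 12.5% and 8.76%). GUCY2D, the membrane guanylate cyclase that restores cyclic GMP after light, was 76.1, 38.1, 53.95 and 49.7 in central and 24.6 and 19.6 in whole retina (1.23 ± 0.23, adjusted p = 0.00114). GUCA1B, a calcium sensor that controls this cyclase, was 873, 665, 771 and 665 against 491 and 312 (0.91 ± 0.21, adjusted p = 0.00377), a call lost without whole retina replicate 2 at 0.0758. TULP1, needed for traffic to the outer segment, was 455, 391, 399 and 373 against 186 and 217 (1.00 ± 0.13, adjusted p = 6.78e-05). Each of these genes had its whole retina pair below every central library. IMPG1, a proteoglycan of the matrix around photoreceptors, was the lower member at 273, 249, 225 and 196 against 298 and 315 (−0.39 ± 0.14, adjusted p = 0.0376), and its call was lost under every scaling tried and without whole retina replicate 1 or 2 or central replicate 3 or 4, at up to 0.635. RPGRIP1, GUCA1A, RDH8, PRCD and UNC119 were not analysed here.

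Bipolar cells pass signals from photoreceptors to ganglion cells, and 5 of 9 tested genes of 13 listed were higher, against 18.9% of all genes, at a median of 0.44. GRIK1, a kainate receptor subunit of OFF bipolar cells, was 30.99, 44.9, 32.97 and 33.02 in central and 15.1 and 19.3 in whole retina (1.00 ± 0.19, adjusted p = 0.00128). PCP2, a marker of ON bipolar cells whose name starts with that of PC, was 266, 175, 305 and 339 against 119 and 119.6 (1.14 ± 0.22, adjusted p = 0.00127). Whole retina replicates were nearly equal for PCP2, and the central libraries of both genes lay above the whole retina pair. GPR179 (shared name start) and LRIT3, both parts of the signalling complex of ON bipolar cells, differed by 1.11 ± 0.16 and 0.44 ± 0.16 (adjusted p = 0.000185 and 0.0372). The LRIT3 call was lost without any 1 of 5 of the 6 libraries, at up to 0.169, and the other 4 remained. Of the 7 tested members without a shared name start, 3 were higher. Peripheral retina stood near central retina in this list, with a central minus peripheral median of 0.04, 1 gene higher and 1 lower. Peripheral minus whole retina, the median was 0.43 with 3 of 9 higher (background 9.83%). VSX1, GRM6, CABP5 and ISL1 were not analysed here.

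Amacrine cells, the inhibitory neurons of the inner retina, had 5 higher and 2 lower of 11 tested genes of 13 listed (all genes 18.9% higher, 29.7% lower), at a median of 0.39. SLC32A1, which loads GABA and glycine into vesicles, was 36.6, 28.3, 28.5 and 35.1 in central and 14.4 and 14.2 in whole retina (1.10 ± 0.13, adjusted p = 3.92e-05). GAD1, which makes GABA, was 30.1, 32.8, 31.4 and 30.2 against 22.4 and 23.7 (0.42 ± 0.12, adjusted p = 0.0138). GAD2, the other GABA-making enzyme, was 12.7, 11.5, 12.2 and 12.6 against 7.88 and 7.67 (0.59 ± 0.15, adjusted p = 0.00826). SLC32A1 alone kept its call in every fit with a library left out. TFAP2A (0.59 ± 0.16, adjusted p = 0.0101) and TFAP2B (0.39 ± 0.14, adjusted p = 0.0369), transcription factors of amacrine cells, made up the 5, and the count was 3 without whole retina replicate 1 and 3 without replicate 2. The glycine transporter SLC6A9, at 48.95, 34.6, 40.3 and 43.7 against 57 and 53.97 (adjusted p = 0.0457), and the glutamate transporter SLC17A8, at 2.01, 2.05, 2.07 and 2.22 against 2.50 and 3.51 (adjusted p = 0.0443), were lower. Neither lower call held under any of the 3 rescalings, the call on SLC6A9 was lost without any library but central replicate 1 and that on SLC17A8 without any but whole retina replicate 1, and SLC17A8 changed sign under quantile normalization (0.07, adjusted p = 0.73). The amacrine list had a central minus peripheral median of −0.18, with 1 gene higher and 1 lower. Peripheral minus whole retina, its median was 0.48 with 6 of 11 higher (background 9.83%). CHAT lay under the filter and CALB2 was not analysed here.

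Only 3 of 6 horizontal cell genes were tested. PROX1, a homeobox factor of these cells, was higher, at 25.1, 18.8, 22.98 and 17.9 against 11.6 and 12.9 (0.74 ± 0.17, adjusted p = 0.00368). TPM3, a tropomyosin that muscle also expresses, was lower, at 18.1, 25.8, 19.3 and 22.6 against 40.2 and 27.3 (−0.62 ± 0.18, adjusted p = 0.0156), a call lost without whole retina replicate 1 at 0.191. CALB1, calbindin, was 100.4, 156, 96.9 and 99.3 against 80.7 and 82.2 and did not pass (adjusted p = 0.164), with central replicate 2 far above the other 3; it passed with each library centred on its median, at 0.0458. LHX1, ONECUT1 and ONECUT2 were not analysed here.

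The 12 largest higher genes that met the naming rule were led by CAMK2N2, an inhibitor of the calcium- and calmodulin-dependent kinase II, at 62.1, 56.8, 65.8 and 69.3 in central and 4.07 and 1.34 in whole retina (4.22 ± 0.25, adjusted p = 2.03e-07). It was the only called gene whose fitted difference on the log2(value + 1) scale exceeded 10-fold higher. SCRT2, a zinc finger repressor of neurons, was 22.3, 25.7, 30.9 and 34.1 against 2.14 and 2 (3.23 ± 0.20, adjusted p = 3.42e-07). Peripheral retina took a middle place for both, at 25.9, 20.3 and 19.9 for CAMK2N2 and 13.3, 10.8 and 9.29 for SCRT2. Every central value of these genes lay above both whole retina values. PTPN5, a tyrosine phosphatase of neurons, was 22.8, 27.03, 26.2 and 35.9 against 4.67 and 4.67 (2.33 ± 0.19, adjusted p = 2.19e-06). DIRAS1, a small GTPase of the Ras family, was 67.95, 59.2, 66.3 and 81.1 against 13.96 and 8.78 (2.52 ± 0.18, adjusted p = 7.38e-07). Of the others, N4BP3 differed by 2.78 ± 0.17, the open reading frames C20orf46 and C15H9orf172 by 2.69 ± 0.24 and 2.37 ± 0.22, the simple-epithelium keratin gene KRT7 by 2.52 ± 0.27 and the glutathione-degrading enzyme gene CHAC1 by 2.27 ± 0.29. SNCG and NEFM were also among the 12. The calls on these 12 genes remained with each library left out.

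Glycolysis, the pathway that supplies much of the energy of photoreceptors, had 6 higher of 13 tested genes of 18 listed, against 18.9% of all genes, at a median of 0.34. TPI1, triosephosphate isomerase, was 45.3, 42.5, 51.6 and 59.5 in central and 12.6 and 14.1 in whole retina (1.81 ± 0.17, adjusted p = 6.08e-06). ALDOC, the aldolase of neural tissue, was 1300.2, 1219, 1200.4 and 1851 against 638 and 601 (1.14 ± 0.19, adjusted p = 0.000481). In both genes the pair of whole retina values lay close together and under all 4 central values. HK2, a hexokinase, was 71.4, 27.9, 44.4 and 52.6 against 21.8 and 16.8 (1.24 ± 0.38, adjusted p = 0.0187), and the neuronal enolase ENO2 was 1992, 1844, 2137 and 2582 against 1334 and 1263 (0.71 ± 0.19, adjusted p = 0.00948). Without whole retina replicate 2 the count was 3, with HK2 at adjusted p = 0.132 and ENO2 at 0.0823; 2 of the 6 calls remained in every such fit. Central replicate 4 had the highest sum of the list, 9042.2 against 6281.0 to 6589.2 in the other 3. PKM2 stood under a repeated name and was left out, and GPI, PFKP, PFKL and PKM were not analysed here.

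Nuclear-encoded subunits of the respiratory chain showed no common direction. Of 27 listed, 22 were tested, 6 were lower and 1 higher, against 29.7% and 18.9% of all genes, and the median of −0.19 was close to that of all genes. The lower count is near its background. COX6C, a subunit of cytochrome c oxidase, was 93.6, 106, 113 and 121 in central and 227 and 282 in whole retina (−1.22 ± 0.17, adjusted p = 0.000117). SDHC, a membrane anchor of complex II, was 3.55, 3.68, 2.82 and 2.81 against 21.01 and 21.5 (−2.41 ± 0.20, adjusted p = 3.16e-06); near-identical copies of such genes in the genome can take part of the reads, so these values are uncertain. The other lower calls and the higher one, NDUFB8 (0.60 ± 0.22, adjusted p = 0.0385), were each lost without at least 1 library, and the lower count was 2 without whole retina replicate 2 or central replicate 3 and 3 without central replicate 1. Under each of the 3 rescalings the lower count was 2, and the higher count was 3 after quantile normalization and 2 after the others. NDUFA4 and UQCRC2 (shared name start) were among those lost, at adjusted p = 0.393 and 0.223, both without whole retina replicate 2. Summed with UQCR, with which it shares its start, UQCRC2 was 316, 330.0, 285 and 434 against 345 and 463, with overlapping groups. Peripheral minus whole retina, the list median was −0.38 with 7 of 22 lower (background 24.3%). Central minus peripheral, it was 0.23 with 3 higher and 0 lower (background 12.5% and 8.76%). NDUFB3, NDUFV1, SDHA, COX5B and ATP5C1 were not analysed here.

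Müller glia span the retina, take up glutamate and recycle retinoids for cones. Of 15 listed genes, 14 were tested and 10 were lower in central retina, against 29.7% of all genes, at a median of −1.23. RLBP1, the retinal-binding protein CRALBP, was 191, 221, 202 and 185 in central and 561 and 528 in whole retina (−1.44 ± 0.16, adjusted p = 2.27e-05). WIF1, a secreted inhibitor of Wnt signals, was 182, 189, 182 and 142 against 417 and 503 (−1.40 ± 0.14, adjusted p = 1.41e-05). The whole retina mean was 2.73-fold the central mean for RLBP1 and 2.65-fold for WIF1, and no libraries overlapped.

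VIM, the filament protein vimentin, showed the largest difference of the list, at 137, 155, 116 and 128 against 1122 and 1243 (−3.14 ± 0.17, adjusted p = 1.45e-07). It is also made by fibroblasts, vessels and other mesenchymal cells. CLU, clusterin, was 229, 212, 204 and 253 against 962 and 845 (−2.01 ± 0.15, adjusted p = 1.56e-06), and CA14, a carbonic anhydrase, was 12.8, 16.8, 15.5 and 15.2 against 60.8 and 66.6 (−2.01 ± 0.17, adjusted p = 3.14e-06). All 3 names share their start with others, and summed with those partners VIM was 173, 195, 154 and 169 against 1179 and 1315 and CLU 507, 390.3, 450.5 and 474 against 1091 and 1097, still without overlap. GLUL, the enzyme that turns glutamate into glutamine, was 597, 652, 541 and 498 against 782 and 721 (−0.40 ± 0.15, adjusted p = 0.046), a call lost under each rescaling and without any 1 of 5 of the 6 libraries, at up to 0.639. Peripheral minus whole retina, the list's median was 0.04, but 3 of its genes were lower: VIM at −1.37, CLU at −1.24 and CA14 at −1.18 (adjusted p = 0.00018, 0.000152 and 0.000429). Central minus peripheral gave a median of −0.97 with 11 of 14 lower (background 8.76%). Of the 10 calls, 8 remained with each library left out. SLC1A3, AQP4, KCNJ10 (shared name start) and SOX9, named after their values were seen, did not pass. Their differences were −0.25 ± 0.17, −0.54 ± 0.34, 0.08 ± 0.18 and 0.05 ± 0.14 (limma adjusted p = 0.24, 0.22, 0.72 and 0.79). HES1 was not analysed here.

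Astrocytes accompany the nerve fibre layer and its vessels. Of 6 listed genes 4 were tested and 3 were lower, against 29.7% of all genes, at a median of −1.71. GJA1, a gap junction protein that many other cells also make, was 0.57, 1.32, 0.82 and 1.23 in central and 106 and 82.8 in whole retina (−5.59 ± 0.17, adjusted p = 3.18e-09); summed with GJA10, which shares its start, it was 3.20, 3.69, 2.85 and 3.22 against 107 and 84.4. ALDH1L1, a folate enzyme of astrocytes, was 1.05, 0.99, 1.56 and 1.07 against 7.02 and 5.32 (−1.72 ± 0.20, adjusted p = 3.39e-05). AGT, angiotensinogen (shared name start), was 0.7, 1.12, 0.95 and 1.13 against 4.09 and 2.06 (adjusted p = 0.00244). S100B was 3.12, 21.8, 12.1 and 20.6 against 40.9 and 40.3, with central replicate 1 far under the others, and did not pass (adjusted p = 0.0596); without central replicate 2 or 4 it did, at 0.0394 and 0.0487. GFAP and PAX2 were not analysed here.

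Pigment epithelium genes were far lower in central retina. All 10 tested members of 13 listed were lower, against 29.7% of all genes, at a median of −3.73. The 10 calls remained with each library left out. RPE65, the isomerase that regenerates the visual chromophore, was 4.48, 6.35, 5.35 and 6.40 in central and 224 and 268 in whole retina (−5.22 ± 0.15, adjusted p = 1.51e-09). Its name begins with that of RPE, and the sum of both was 14.4, 39.8, 16.5 and 14.8 against 239 and 285. TTR, transthyretin, which carries retinol with its binding protein, was 33.8, 95.1, 50.7 and 77.4 against 1422 and 1289 (−4.48 ± 0.33, adjusted p = 1.27e-06). Each central library lay more than 10-fold under each whole retina library for TTR, and in peripheral retina TTR was 287, 227 and 345.

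RGR, an opsin of pigment epithelium and Müller glia, was 11.9, 21.6, 11.5 and 18.7 in central and 202 and 168 in whole retina (−3.50 ± 0.24, adjusted p = 6.64e-07). BMP4, a growth factor of the pigment epithelium, was 1.70, 4.09, 2.07 and 2.62 against 56.05 and 50.1 (−3.94 ± 0.22, adjusted p = 1.41e-07). The potassium channel gene KCNJ13 and the proline transporter gene SLC6A20, both with shared name starts, differed by −4.15 ± 0.24 and −4.03 ± 0.28 (adjusted p = 2.11e-07 and 6.38e-07). For the list as a whole peripheral retina lay between, with a central minus peripheral median of −1.52 (8 of 10 lower, background 8.76%). The peripheral minus whole retina median was −1.66 (9 of 10 lower, background 24.3%). RPE65 was near its central level in peripheral retina, at 7.01, 7.48 and 6.18. BEST1, SERPINF1 and RRH were not analysed here.

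The retinoid cycle returns bleached chromophore to the photoreceptors through pigment epithelium and Müller glia. Of 16 genes listed, 14 were tested and 11 were lower, against 29.7% of all genes, at a median of −2.18. It shares RPE65, TTR, RGR, LRAT and RDH5 with the pigment epithelium list and RLBP1 with that of Müller glia, so the counts are not separate evidence. STRA6, the cell-surface receptor that takes up retinol, was 4.05, 7.70, 5.51 and 6.30 in central and 40.5 and 35.9 in whole retina (−2.53 ± 0.21, adjusted p = 2.71e-06). The 3 that did not pass, ABCA4, RDH12 and RBP3, were named after their values were seen. Their differences were −0.18 ± 0.18, −0.17 ± 0.16 and 0.20 ± 0.25 (limma adjusted p = 0.436, 0.409 and 0.533). RDH8 and RBP4 were not analysed here.

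Melanin genes belong to pigment epithelium and to the melanocytes of choroid and iris. All 10 tested members of 12 listed were lower, against 29.7% of all genes, at a median of −4.60. SILV, the older symbol of the gene for the fibrils of the pigment granule, was 0.12, 0.16, 0.12 and 0.23 in central and 304 and 178 in whole retina (−7.66 ± 0.36, adjusted p = 4.5e-08). MLANA, another melanosome protein, was 0.06, 0.1, 0.03 and 0.17 against 142 and 145 (−7.05 ± 0.14, adjusted p = 3.47e-10). Central values of both genes were near 0 in all 4 libraries. GPNMB, a glycoprotein of melanosomes and macrophages, was 0.65, 1.23, 0.73 and 0.88 against 162 and 123 (−6.26 ± 0.15, adjusted p = 9.38e-10), and the transporter gene SLC45A2 was 0.28, 0.44, 0.26 and 0.34 against 19.3 and 19.2 (−3.93 ± 0.15, adjusted p = 9.65e-09). TYR, tyrosinase, the first enzyme of melanin synthesis, whose name starts those of TYRP1, TYRO3 and TYROBP, was 0.12, 0.02, 0 and 0.06 against 40.1 and 39.1 (−5.27 ± 0.17, adjusted p = 4.17e-09). Of the 10 calls, 9 remained with each library left out, and 6 of the 6 members without a shared name start were lower. PMEL, the present symbol of SILV, and OCA2 were not analysed here.

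**Figure D4:**
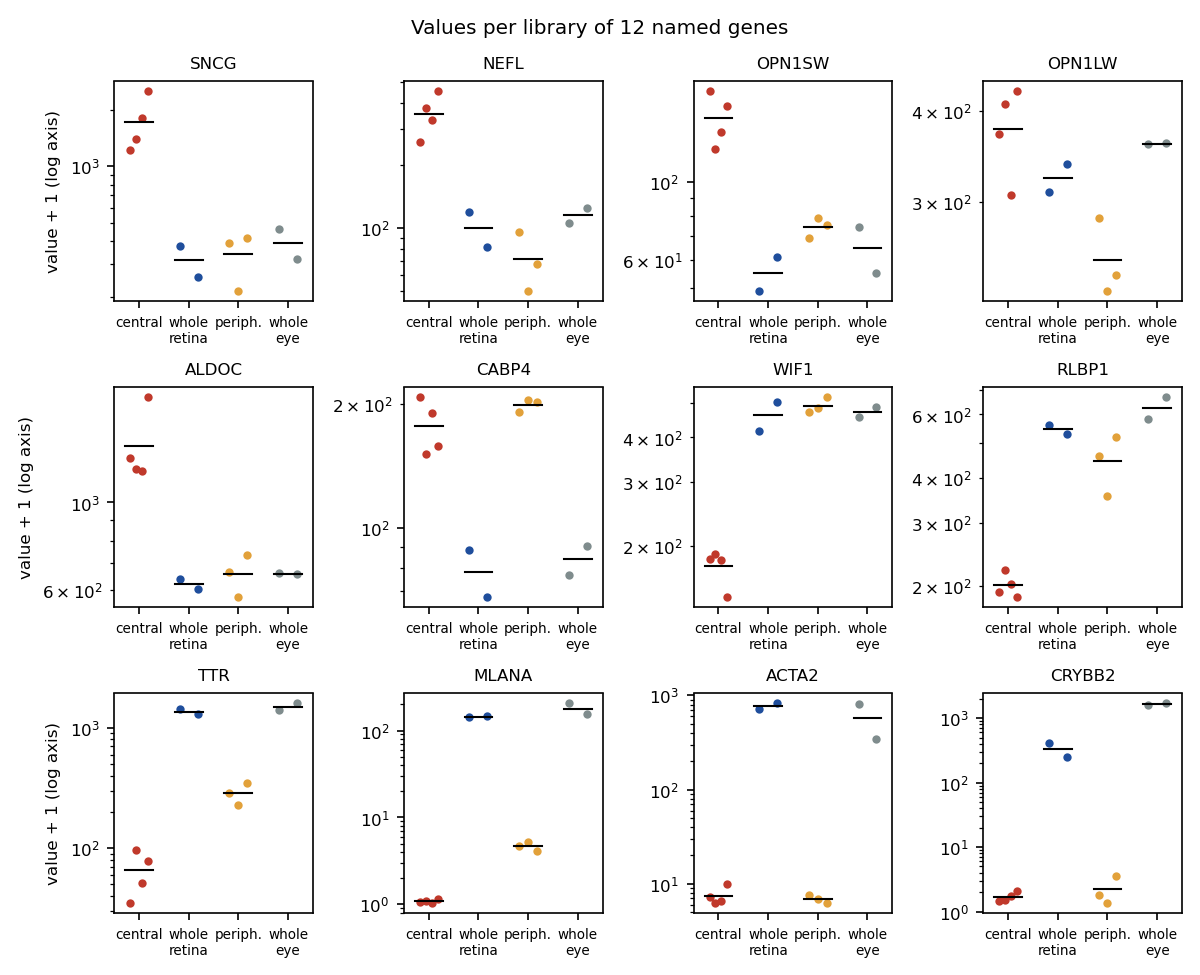
Values per library of 12 named genes, as value + 1 on a log axis, in central, whole retina, peripheral and whole eye libraries, with a bar at the mean. SNCG, NEFL, OPN1SW, ALDOC and CABP4 are higher in every central library than in both whole retina libraries, the whole retina points of OPN1LW lie within the central range, and the central points of MLANA, ACTA2 and CRYBB2 lie far below those of whole retina.

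Genes of ciliary body, iris and outflow tissue at the front of the eye were lower at 7 of 7 tested of 10 listed. Of all genes 29.7% were lower, and the list median was −2.65. OPTC, the vitreous matrix protein opticin made by the ciliary epithelium, had the largest difference of all named genes, at 0.14, 0.24, 0.12 and 0.1 in central and 501 and 546 in whole retina (−8.83 ± 0.57, adjusted p = 3.85e-07). MYOC, myocilin of the trabecular meshwork, was 0.35, 0.06, 0.13 and 0.12 against 215 and 168 (−7.37 ± 0.17, adjusted p = 5.66e-10). Whole eyes had OPTC at 456 and 394 and MYOC at 141 and 194, no higher than whole retina in the case of OPTC. ZIC1, a zinc finger transcription factor, was 0.21, 0.39, 0.28 and 0.56 against 8.26 and 6.85 (−2.65 ± 0.22, adjusted p = 2.73e-06). FOXC1, a forkhead factor of the anterior segment, was 1.53, 0.58, 1.06 and 0.38 against 10.2 and 11.4 (−2.68 ± 0.24, adjusted p = 5.02e-06). Of the 7 calls, 6 remained with each library left out. AQP1 and WFDC1 were not analysed here.

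Lens genes were lower at 12 of 16 tested of 20 listed, against 29.7% of all genes, with a median of −1.58. Those 12 calls remained with each library left out. Central minus peripheral, the median was −0.02, and peripheral minus whole retina it was −1.59 with 13 lower (background 24.3%). CRYBB2, a structural beta crystallin, was 0.48, 0.52, 0.71 and 1.11 in central and 406 and 252 in whole retina (−7.57 ± 0.33, adjusted p = 2.89e-08). CRYBA1, of the same family, was 0.12, 0.69, 0.45 and 1.25 against 42.95 and 41.1 (−4.77 ± 0.24, adjusted p = 7.3e-08). CRYAB, alpha-B crystallin, a small heat shock protein that retina and muscle also make, was 32.4, 24.9, 22.1 and 34.2 against 530.0 and 570.5 (−4.25 ± 0.20, adjusted p = 4.5e-08). LIM2, a membrane protein of lens fibres, was listed at 0 in all 4 central libraries and was 15.04 and 8.36 in whole retina (adjusted p = 7.8e-08). MIP and GJA3, singled out after their values were seen, were also listed at 0 in every central library. CRYAA, CRYBB1, CRYGN and LENEP were not analysed here.

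Genes of the corneal and conjunctival surface were low in both groups. Of 13 listed, 5 were tested and 4 were lower, against 29.7% of all genes, at a median of −0.63. KRT12, the keratin of corneal epithelium, was 0.3, 0.08, 0.08 and 0.13 in central and 0.93 and 28.2 in whole retina, against 569.9 and 542 in whole eye (−2.71 ± 0.81, adjusted p = 0.0169). Whole retina replicate 2 was far above the other 5 libraries, and the call was lost without it, at 0.275. ALDH3A1, a dehydrogenase of corneal epithelium, was 3.67, 3.70, 4.42 and 2.48 against 12.4 and 33.2 (−2.25 ± 0.36, adjusted p = 0.000345). KRT4, at 0, 0, 0 and 0.04 against 0.1 and 1.21 (adjusted p = 0.041), and S100A8, listed at 0 in central retina and at 0.73 and 0.28 in whole retina (adjusted p = 0.0199), lay near 0 in most of the 6 libraries. The KRT4 call was lost without any library but whole retina replicate 1, at up to 0.603, and with a pseudocount of 5, and 1 of the 4 calls remained with each library left out. The count was 2 without whole retina replicate 2, 2 with each library centred on its median and 1 after quantile normalization. KRT3, KRT5, KRT13, KRT15, KRT24, MUC4 and MUC16 were not analysed here.

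Fibrous stroma, as in sclera and choroid, had 13 lower of 14 tested genes of 19 listed, against 29.7% of all genes. The list median was −3.85. Central minus peripheral, it was −0.42, and peripheral minus whole retina it was −3.65 with 13 lower (background 24.3%). COL1A2, a chain of type I collagen, was 0.23, 0.18, 0.14 and 0.28 in central and 111 and 83.9 in whole retina (−6.34 ± 0.24, adjusted p = 9.93e-09), and the other chain, COL1A1, was 0.08, 0.06, 0.01 and 0.13 against 28.8 and 18.3 (−4.49 ± 0.28, adjusted p = 3.41e-07). DCN, the proteoglycan decorin, was 0.29, 0.11, 0.08 and 0.12 against 116 and 201 (−7.07 ± 0.29, adjusted p = 1.72e-08). Every central value of these 3 genes was 0.29 or less. OGN, the related proteoglycan osteoglycin, was 0.08, 0, 0.05 and 0.06 against 48.5 and 80.3 (−5.92 ± 0.22, adjusted p = 9.65e-09), and FBLN1, fibulin 1, was 0.16, 0.24, 0.11 and 0.27 against 142 and 124 (−6.81 ± 0.28, adjusted p = 1.72e-08). Its name starts with that of FBL, and the sum of both was 33.5, 33.7, 35.5 and 44.1 against 211 and 172. Of the 13 calls, 12 remained with each library left out. KERA and POSTN lay under the filter, and COL5A1, COL6A1 and COL8A1 were not analysed here.

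Smooth muscle genes, as of ciliary muscle, iris and vessel walls, gave the lowest median of the 30 lists, −4.89. All 6 tested members of 8 listed were lower, against 29.7% of all genes, and the calls remained with each library left out. ACTA2, smooth muscle actin, was 6.32, 5.21, 5.51 and 8.91 in central and 723 and 819.6 in whole retina (−6.71 ± 0.29, adjusted p = 2.8e-08). MYH11, smooth muscle myosin, was 1.15, 0.91, 1.09 and 0.96 against 299 and 441 (−7.49 ± 0.20, adjusted p = 1.39e-09); its name starts with that of MYH1, and with it the sum was 1.53, 1.22, 1.23 and 1.29 against 299 and 441. DES, the muscle filament protein desmin, was 3.09, 1.92, 1.66 and 2.02 against 179 and 139 (−5.67 ± 0.25, adjusted p = 3.46e-08). Central and peripheral retina stood close together here, with a median of 0.07 between them, and ACTA2 in peripheral retina was 6.55, 5.88 and 5.30. ACTG2, gamma smooth muscle actin, differed by −4.02 ± 0.21 (adjusted p = 8.55e-08). TAGLN and CNN1 were not analysed here.

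Skeletal muscle genes, which mark the muscles that move the eye, were low in both groups. Of 14 listed, 7 were tested, with 1 higher and 1 lower and a median of 0.13. Neither count exceeded its background, 18.9% of all genes higher and 29.7% lower. ACTA1, skeletal actin, was 2.37, 2.23, 3.26 and 3.42 in central and 0.53 and 0.58 in whole retina (adjusted p = 0.0302), a call lost without either whole retina replicate or central replicate 3 or 4, at up to 0.113. MB, myoglobin, whose name starts many others, was 0.05, 0, 0 and 0 against 1.31 and 1.45 (adjusted p = 0.0017), a call lost with a pseudocount of 5, at 0.186. TNNC2 and MYBPC1, a troponin and a myosin-binding protein, did not pass (adjusted p = 0.199 and 0.179), although MYBPC1 did after quantile normalization, at 0.00365, and TNNC2 in the fit of the 6 libraries alone, at 0.0138. MYH7, CKM, TNNC1, TNNT1, TNNT3, TNNI2 and TTN were not analysed here.

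Vascular genes were lower in central retina at 8 of 10 tested of 12 listed, against 29.7% of all genes, with a median of −1.39. The 8 calls remained with each library left out. Peripheral retina was as low, with a central minus peripheral median of 0.06, 1 gene higher and 1 lower. Peripheral minus whole retina, the median was −1.46 with 8 lower (background 24.3%). RGS5, a signalling regulator of pericytes, was 24.1, 28.9, 21.6 and 17.6 in central and 144 and 209 in whole retina (−2.88 ± 0.25, adjusted p = 4.38e-06). VWF, the clotting factor stored in endothelium, was 1.13, 0.61, 0.67 and 0.87 against 16.6 and 9.07 (−2.88 ± 0.23, adjusted p = 2.16e-06). CDH5, the cadherin that joins endothelial cells, was 1.31, 1.14, 1.15 and 1.28 against 8.07 and 6.72 (−1.92 ± 0.16, adjusted p = 2.91e-06), and PDGFRB, a receptor of pericytes and fibroblasts, was 4.02, 3.57, 3.68 and 3.18 against 15.3 and 12.2 (−1.68 ± 0.14, adjusted p = 3.65e-06). Whole retina means ran from 3.82-fold the central mean for PDGFRB to 15.7-fold for VWF. Of the 7 members without a shared name start, 5 were lower. The endothelial receptors KDR and FLT1 did not pass (adjusted p = 0.226 and 0.514); they were named after their values were seen. CSPG4 lay under the filter and CLDN5 was not analysed here.

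Haemoglobin genes differed between the 2 whole retina libraries. Of 6 blood genes listed, 3 were tested and 2 were lower in central retina, against 29.7% of all genes, at a median of −2.15. Central minus peripheral, the median was −0.03, and peripheral minus whole retina it was −2.38. HBB was 65.3, 14.3, 39.4 and 38.9 in central and 109.7 and 383 in whole retina (−2.53 ± 0.60, adjusted p = 0.00485), and HBA2 was 18.2, 3.85, 10.9 and 18.1 against 28.6 and 95.2 (−2.15 ± 0.60, adjusted p = 0.0117). Neither call held without whole retina replicate 2, at 0.0861 and 0.176. ALAS2, the haem enzyme of red cell precursors, did not pass (adjusted p = 0.162). HBA2 has a near-identical copy, HBA1, which with SLC4A1 and HBM was not analysed here.

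Schwann cells and oligodendrocytes wrap axons, and 4 of 7 tested genes of 9 listed were lower, against 29.7% of all genes. The list median was −1.21. Central minus peripheral, it was −0.05, and peripheral minus whole retina it was −0.87 with 5 lower (background 24.3%). SOX10, a transcription factor of Schwann cells and melanocytes, was 0.67, 0.7, 0.52 and 0.67 in central and 37.3 and 20.6 in whole retina (−4.13 ± 0.28, adjusted p = 6.57e-07). Each central library lay far below both whole retina libraries. MAG and CLDN11, both with shared name starts, differed by −0.93 ± 0.27 and −1.21 ± 0.16 (adjusted p = 0.015 and 9.15e-05). The MAG call was lost without either whole retina replicate, at 0.0664 and 0.0553, after quantile normalization (a difference of −0.30, 0.452) and with a pseudocount of 5 (−0.26, 0.0991). Without the genes of shared name start, 2 were tested and 2 were lower. MBP was not analysed here.

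Genes of microglia and other immune cells were lower at 8 of 8 tested of 14 listed, against 29.7% of all genes, with a median of −3.46. The calls remained with each library left out. Peripheral retina was low too: peripheral minus whole retina, the median was −3.17 with 8 lower (background 24.3%). Central minus peripheral, it was −0.38 with 0 lower (background 8.76%). CD74, the chaperone of MHC class II molecules, was 23.9, 16, 22.04 and 21.1 in central and 1149 and 308 in whole retina (−4.79 ± 0.40, adjusted p = 3.14e-06). TYROBP, an adaptor of microglia and macrophages, was 2.02, 1.38, 1.36 and 1.53 against 48.8 and 18.3 (−3.60 ± 0.29, adjusted p = 2.35e-06), and CSF1R, their growth factor receptor, was 2.51, 2.37, 2.59 and 2.90 against 50.6 and 21.6 (−3.25 ± 0.27, adjusted p = 3.09e-06). Whole retina replicate 1 was the higher of the pair for each. AIF1, the microglial protein IBA1, was 1.57, 0.69, 0.81 and 1.36 against 30.02 and 12.9 (−3.32 ± 0.28, adjusted p = 3.45e-06). The names of TYROBP, CSF1R and AIF1 share their starts with TYR, CSF1 and AIF1L. Summed with CSF1, CSF1R was 3.34, 3.23, 3.42 and 4.02 against 58.7 and 24.2. Summed with AIF1L, AIF1 was 6.89, 5.16, 3.69 and 3.84 against 38.2 and 19.5. A sum of TYROBP with TYR cannot test its call, since TYR alone was 40.1 and 39.1 in whole retina and at most 0.12 in central retina. Of the 4 members without a shared name start, 4 were lower. C1QB, PTPRC, CD68, ITGAM, CD163 and MRC1 were not analysed here.

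Genes of complement and of risk for age-related macular degeneration had 6 lower and 1 higher of 7 tested of 14 listed. Of all genes 29.7% were lower and 18.9% higher, and the list median was −1.16. CFB, complement factor B, was 0.33, 0.37, 0.48 and 0.26 in central and 84.9 and 50.6 in whole retina (−5.62 ± 0.28, adjusted p = 7.8e-08). TIMP3, the metalloproteinase inhibitor of Bruch's membrane, was 50.6, 56.8, 58.8 and 48.1 against 703 and 652 (−3.64 ± 0.15, adjusted p = 2.21e-08). COL10A1, a short-chain collagen, was 0.11, 0.1, 0.21 and 0.13 against 1.53 and 1.56 (−1.16 ± 0.12, adjusted p = 1.7e-05). These 3 had no central library near the whole retina pair. VEGFA, the growth factor that drives new vessels, was the higher member, at 37.8, 46.9, 42.7 and 46.5 against 27.1 and 34.3 (0.49 ± 0.13, adjusted p = 0.0104). Without whole retina replicate 1 the list had 3 lower genes, and VEGFA lost its call at 0.116. C2, CFI, C9, ARMS2, LIPC and CETP were not analysed here.

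Cytosolic ribosomal protein genes, needed in all cells, were lower at 15 of 22 tested of 34 listed, against 29.7% of all genes. The list median was −0.94, and 11 of the calls remained with each library left out. RPL4 was 199, 179.8, 199.7 and 211 in central and 416 and 440.2 in whole retina (−1.11 ± 0.13, adjusted p = 3.79e-05). RPL23 was 106, 128, 140.0 and 149.7 against 524 and 491 (−1.95 ± 0.15, adjusted p = 1.45e-06), and summed with RPL23A, which shares its start, it was 115, 138, 147 and 157 against 537 and 504. RPL10 and RPL27, also with shared name starts, differed by −1.44 ± 0.14 and −1.57 ± 0.13 (adjusted p = 8.63e-06 and 3.25e-06). Of 11 members without a shared start, 8 were lower. Ribosomal protein genes have many processed copies in the genome, so how reads were assigned to them is uncertain. The list's sum was 3771.4 to 5266.2 in central, 3642.8 to 4654.2 in peripheral and 7750.6 to 8316.4 in whole retina. RPL5, RPL11, RPL13, RPL14, RPL18, RPL30, RPL37, RPS4X, RPS6, RPS19 and RPS27 were not analysed here.

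Heat shock genes, which respond to stress in the cell, had 4 lower of 10 tested of 12 listed, close to the 29.7% of all genes, at a median of −0.35. HSPB1, a small heat shock protein abundant in muscle, was 25.2, 23.5, 21.6 and 28.6 in central and 118 and 181 in whole retina (−2.52 ± 0.23, adjusted p = 4.9e-06), and 32.2, 35.5, 28.7 and 33.7 against 125 and 189 when summed with HSPB11, which shares its start. HSPB8, of the same family, was 15.6, 10.7, 7.32 and 11.9 against 66.5 and 79.3 (−2.62 ± 0.29, adjusted p = 2.71e-05). The mitochondrial chaperone HSPD1 differed by −0.54 ± 0.16 (adjusted p = 0.017), a call lost without whole retina replicate 2 at 0.153 and under all 3 rescalings. Its partner HSPE1, whose near-identical copies make its counting uncertain, was 2.35, 3.81, 1.97 and 2.76 against 11.7 and 13.8 (−1.90 ± 0.22, adjusted p = 2.97e-05). Peripheral minus whole retina, the list median was −0.50 with 4 of 10 lower (background 24.3%). Central minus peripheral, it was 0.13 with 0 higher and 0 lower (background 12.5% and 8.76%). HSPA1A and DNAJB1 were not analysed here.

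Immediate early genes, switched on within minutes of a stimulus, had 1 higher and 1 lower of 9 tested of 11 listed. Of all genes 18.9% were higher and 29.7% lower, and neither count exceeded its background. EGR1 was 8.08, 6.71, 6.30 and 8.32 in central and 19.9 and 20.7 in whole retina (−1.36 ± 0.20, adjusted p = 0.000208), and whole eyes had 5.54 and 8.39. JUN, which shares its name start with JUNB, was 17.2, 13.4, 15.1 and 19.6 against 13.2 and 8.97 (0.53 ± 0.17, adjusted p = 0.025), a call lost without whole retina replicate 2, central replicate 1 or central replicate 4. Summed with JUNB it was 31.99, 28.4, 32.7 and 38.96 against 30.8 and 16.6, with overlapping groups. JUNB and KLF4 did not pass (adjusted p = 0.124 and 0.0542); JUNB passed without whole retina replicate 1, at 0.000754, and KLF4 without whole retina replicate 2, at 0.0118. Without whole retina replicate 2 the list had 3 lower genes. The list median, −0.21 as deposited, was 0.11 after quantile normalization. FOSB and EGR2 were not analysed here.

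The 12 largest lower genes by the naming rule held 8 members of these lists, OPTC, SILV, CRYBB2, MYOC, DCN, MLANA, ACTA2 and COL1A2, and 4 others. A2M, the plasma protease inhibitor alpha-2-macroglobulin, was 13.9, 11.6, 11.1 and 9.58 in central and 1506 and 1654 in whole retina (−6.99 ± 0.19, adjusted p = 1.39e-09). MGP, matrix Gla protein, which keeps soft tissue from calcifying, was 5.01, 7.21, 4.25 and 8.54 against 673 and 768 (−6.67 ± 0.37, adjusted p = 1.46e-07). SFRP4, a secreted Wnt antagonist, was 0.2, 0.05, 0.06 and 0.01 against 88.4 and 123 (−6.61 ± 0.18, adjusted p = 1.39e-09), and S100A4, a calcium-binding protein of fibroblasts and immune cells, was 0.8, 0.62, 0.34 and 0.41 against 129 and 140.4 (−6.47 ± 0.17, adjusted p = 1.39e-09). Peripheral retina was low for all 4, at 21.5, 12.7 and 16.7 for A2M and 12.5, 13 and 4.09 for MGP. Whole eyes had A2M at 833 and 729, under the 2 whole retina values. The 12 calls remained with each library left out.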

How the data were processed

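The measurement is RNA sequencing of monkey eye tissue. The authors deposited 1 table per library with a normalized signal for each gene; per the submitters' processing notes GSNAP and HTSeq were used, while scaling, genome build and annotation were not given in these sources. Of 13083 entries per table, 26 marked ND, 1 empty and 61 exact duplicates were dropped. Tested were the 11933 genes whose mean reached 1 in any of the 4 groups. limma 3.58.1 (R 4.3.3) was fitted to log2(value + 1) over 11 libraries in 4 groups with a variance trend, leaving 7 residual degrees of freedom; p-values were adjusted over all tested genes by Benjamini-Hochberg. Folds of fitted values understate changes of low genes. The plan allowed for counts; the values are not counts, so no count test was run.

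The members and the 30 gene lists were chosen with earlier results of these data known. Named were, per direction, the 12 largest called differences without overlapping libraries and averaging 10 or more in the higher group, leaving out unnamed loci, repeated names and shared name starts (10 larger genes passed over among the higher, 5 among the lower); in each list the 4 members, or fewer, with the smallest p; list directions of 5 members or fewer in full; and 16 markers; a few of these genes are not reported here. On simulated data with 200 of 11479 genes changed, 74% of 2-fold and 22% of 1.5-fold changes between central and whole retina were recovered, with 4% false among calls. The changed genes were drawn from the more highly expressed ones, and all other genes had equal group means. In the real comparison 48.7% of genes were called, so these rates need not hold for it. Alternatives covered the pseudocount, the filter, 3 rescalings, the libraries fitted, the trend, shared names, a replicate block and each library left out. The number of libraries limits precision, and strand was not stated.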

Additional observations from a re-analysis of the deposited data

Results flagged for a closer look

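In 16 of 177 genes and list sums examined, 1 of the 4 central libraries stood apart from the other 3. Its gap to the others exceeded Dixon's 95% critical share of the group's range. Chance gives about 1 in 20 for independent items. These items are not independent, since genes of 1 library can move together and list sums hold genes also examined singly. The 16 therefore cannot be weighed against that share. The library that stood apart was replicate 4 in 6 cases, replicate 2 in 5, replicate 1 in 3 and replicate 3 in 2. Replicate 4 had the highest NEFM (390.8, others 218.58 to 237.37), KIF5A (178.03, others 121.56 to 129.84) and ALDOC (1851.04, others 1200.44 to 1300.24). It also had the highest sum of the glycolysis list (9042.2, others 6281.0 to 6589.2) and the lowest WIF1 (142.46, others 181.81 to 188.86). Replicate 2 was highest for CALB1 (156.37, others 96.92 to 100.44), GRIK1 (44.9, others 30.99 to 33.02) and KCNJ13 (2.71, others 0.77 to 1.05). It was also highest for the sum of the horizontal cell list (201.0, others 139.2 to 143.6) and lowest for KLF4 (1.67, others 2.68 to 2.87). CACNA1F was highest in replicate 1 (94.03, others 77.6 to 80.14). ALDH1L1 was highest (1.56, others 0.99 to 1.07) and SOX10 lowest (0.52, others 0.67 to 0.7) in replicate 3. At values near 0, KRT4 was 0.04 in replicate 4, and in replicate 1 MB was 0.05 and ALAS2 0.16.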

How the results depend on the processing

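The count of genes lower in central retina stayed within 1.5 times of its value under all 17 alternatives, and that of genes higher did so under all but quantile normalization, which gave 3681. With 1 library left out, 1521 to 2249 genes were higher and 3023 to 3736 lower, the lowest counts coming without whole retina replicate 2; without whole retina replicate 1 the remaining library is assumed to vary like the other groups, and the same holds for replicate 2. Fitting the 6 libraries alone gave 2043 higher and 3187 lower. Of 137 called genes named by the rule, 104 kept direction and call under each of the 17 alternatives in which they were tested. The count with each library left out was 105. Genes with a shared name start were not tested in the fit without such names. Low genes were not tested where a mean of at least 5 in a group was required. SLC17A8 alone reversed, at 0.07 under quantile normalization. With the replicate number as a replicate block, 2145 genes were higher and 3282 lower, and 1964 and 3131 of these were among the calls without it. Only numbers 1 and 2 are shared by both groups, and the deviations of the libraries with the same number correlated at 0.057 and 0.203. With 2 whole retina libraries the 2 sets of deviations mirror each other, so these correlations cannot show whether libraries were paired. The labels name no animal, and no pairing was used in the main fit. The block lowered the glycolysis count from 6 to 3 and ended the calls on NRL, CNGB1, HK2 and TFAP2B among others. No count model was run, since the tables hold no counts. Depth is unknown, and genes with values near 0 carry the least weight.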

Other observations

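The 2 whole retina libraries differed from each other in genes of lymphoid cells, which were chosen after their values were seen and are given without a test. CCL19, a chemokine that draws T cells and dendritic cells, was 178 and 3.06 in replicates 1 and 2, and 3.01 and 3.33 in the whole eye libraries. CXCL13, which draws B cells, went the other way, at 48.4 and 346, and was listed at 0 in every central and peripheral library. The MHC class II gene MAMU-DRA was 448 and 128, LTB 18.8 and 0.88, CD27 9.34 and 0.86 and CD3G, a chain of the T cell receptor complex, 4.84 and 0.36. Replicate 1 held more of these 4, and none of the central libraries exceeded 6.06 for MAMU-DRA.

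Some pairs of names with a shared start had values that moved in opposite directions between libraries. H2AFY was 136, 8.39, 6.37 and 129 in the central libraries while H2AFY2 was 7.44, 148, 133 and 8.33, so that a library high for the former was low for the latter. RNF10 was 48.9, 47.1, 43.8 and 42.8 in central and 11.9 and 16.1 in whole retina. RNF103 was 10.1, 13.3, 9.97 and 10.3 in central and 76.6 and 73.5 in whole retina. In peripheral retina RNF10 was 44.6, 45.65 and 46.3 and RNF103 13.1, 12.7 and 12.1. Whole eyes had RNF10 at 13.9 and 14.9 and RNF103 at 68.5 and 68.1. Genes of the Y chromosome did not go one way. EIF1AY was 28.7 and 50.6 in whole retina, 46.3 and 58.1 in whole eye and at most 0.09 in central retina. In peripheral retina it was 0.23, 0.09 and 0.09. EIF1AX, its X-linked relative, was 23.9, 33.5, 26.3 and 19.7 in central and 19.6 and 26.9 in whole retina. RPS4Y1 was 44.4, 46.1, 49.6 and 53.3 against 179 and 154, DDX3Y 15.99, 28.04, 18.9 and 16.3 against 12.04 and 21.99, USP9Y 10.6, 11.1, 10 and 8.48 against 9.29 and 11.2 and UTY 7.21, 8.01, 7.28 and 6.29 against 4.96 and 5.15. In peripheral retina RPS4Y1 was 61.0, 64.6 and 69.2 and USP9Y 14.4, 13.6 and 8.80. Whole eyes had RPS4Y1 at 161 and 161 and USP9Y at 9.56 and 11.4. Any difference in handling between the regional libraries and those of whole retina and whole eye coincides with tissue. The cause of these values was not tested.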
